A study of Mus musculus with 12 samples.

Results

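The response of wild-type mouse granulosa cells to human chorionic gonadotropin (hCG) was measured as the difference between 2 groups of 3 arrays. Granulosa cells line the ovarian follicle, feed the oocyte and make steroid hormones. Wild-type mice of the mixed strain C57BL/6J;129S5/SvEvBrd were injected at 21 days of age with 5 IU of PMSG (pregnant mare serum gonadotropin), a hormone with the action of follicle-stimulating hormone. After 44 to 46 h, cells were collected by puncturing antral follicles (the PMSG group), or a further 5 IU of hCG was given and cells were collected 6 h later (the hCG group). These 6 arrays, out of 12 in the series, were compared over all 18193 genes that had a probe set naming a single gene. The other 6 arrays came from Inha knockout mice, which have no inhibin alpha subunit, under the same treatments. The labels call the samples independent but do not say how many mice each holds, so the p-values measure the spread between these samples. In such bulk samples fewer cells of a type and less RNA per cell cannot be told apart.

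hCG binds the receptor of LH, luteinizing hormone, and replaces the surge of LH that ends follicle growth. In mural granulosa cells the surge raises cyclic AMP, which leads to release of EGF-like growth factors, activation of the kinase ERK and induction of the progesterone receptor, of prostaglandin synthesis and of a hyaluronan matrix around the oocyte. The same cells leave the cell cycle, lose the gene programme of the growing follicle and turn to progesterone, the first step of luteinization.

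The deposited log2 expression values had been centred, so that each probe set has a median of 0 over the 12 arrays. A value is therefore a difference from that median and gives no level. Signals were not compared with background here. Where a group's signal is close to background, a large fold is therefore no ratio of measured levels. For the same reason the labelled cell type could not be checked on the levels of its markers. Inha, which the knockout lacks, lay between 5.40 and 5.87 on the 6 wild-type arrays and between -7.40 and -5.40 on the 6 knockout arrays. Among wild-type arrays the values were most spread on hCG replicate 3, with an SD of 0.727, where the other 5 had 0.371 to 0.600. hCG replicates 2 and 3 share a number in their array names and have late serial numbers, with hybridization controls at 0.779 and 0.864, against -1.17 to -0.0284 on the 4 early wild-type arrays. 

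A gene was called when limma gave an adjusted p under 0.05, with its difference in log2 units given as hCG minus PMSG ± SE. By this rule 2090 probe sets rose (5.98% of 34945) and 2155 fell (6.17%). Taken per gene, 1153 genes rose (6.34% of those tested) and 1299 fell (7.14%), and at a change of at least 2-fold these numbers were 853 and 854 (4.69% each). The response was lopsided in size rather than in number. Among the rises 425 reached 4-fold, 101 reached 16-fold and 27 reached 64-fold, whereas among the falls 190 reached 4-fold and 0 reached 16-fold. The median difference of all genes was 0.00, with the 5th and 95th percentiles at -1.26 and 1.21. For 5515 genes (30.3%) every array of 1 group lay above every array of the other.

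The calls depended on single arrays, most of all the falls. The model was refitted 6 times, leaving out 1 wild-type array each time. Over these refits the number of genes that rose lay between 741 and 1143 and of those that fell between 622 and 1391, with the lowest numbers without hCG replicate 3. With the number in the array names as a random block they were 717 and 437. On early arrays alone, where hCG replicate 1 stands against the 3 PMSG arrays, they were 615 and 518. That fit takes the spread of its lone hCG array from the other early arrays, with 3 residual degrees of freedom. hCG replicate 3 lay farthest from the PMSG mean for 74.7% of the genes that rose at least 2-fold and for 78.3% of those that fell. The median difference of these rising genes was 1.99 on hCG replicate 1, 1.70 on replicate 2 and 2.37 on replicate 3, and that of the falling genes -1.47, -1.08 and -1.91. These medians come from the arrays that called the genes and describe them only. Of the 192 genes named by the rule of the methods and called, 125 kept their call in all 6 refits, 92 of 115 rises and 33 of 77 falls. For each named gene that lost its call in some refit, the number of refits that kept it is given below with the range of its difference.

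**Figure D1:**
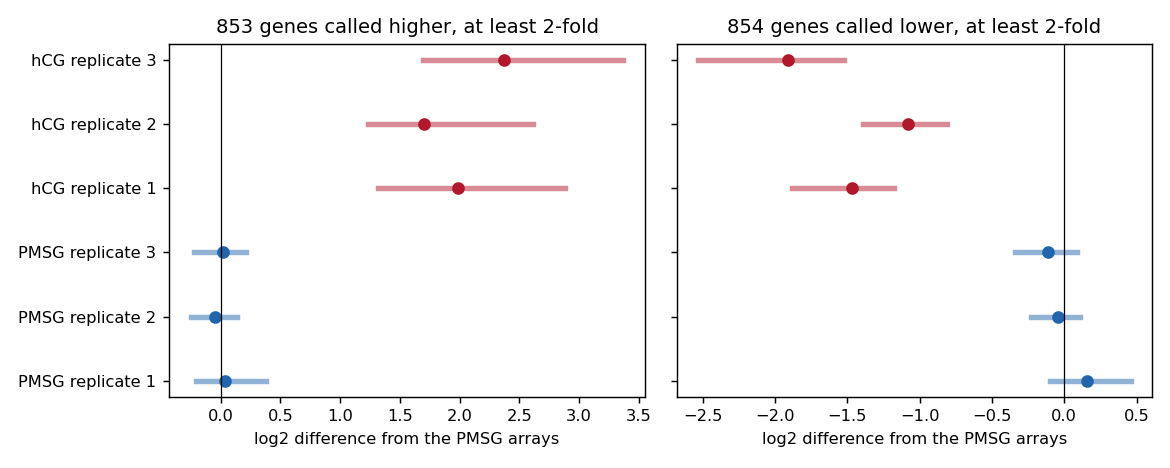
Median (point) and quartiles (bar) of the log2 difference of each wild-type array from the PMSG arrays, over the 853 genes called higher (left) and the 854 called lower (right) at 2-fold or more; a PMSG array (blue) is set against the other PMSG arrays, an hCG array (red) against their mean. hCG replicate 3 has the largest medians on both sides, 2.37 and -1.91, and hCG replicate 2 the smallest, 1.70 and -1.08.

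The largest rises were those of an enzyme that inactivates oestrogen, of secreted peptides, of EGF-like ligands and of known regulators of ovulation. Sult1e1, the oestrogen sulfotransferase, had values of -4.69, -4.69 and -4.64 after PMSG and of 7.34, 7.34 and 7.48 after hCG, a difference of 12.06 ± 0.254 (adjusted p = 2.36e-08). Nts, the gene of the peptide neurotensin, lay at -5.44, -4.86 and -4.84 after PMSG and at 6.52, 6.82 and 7.15 after hCG (11.88 ± 0.310). Prkg2, a cGMP-dependent protein kinase, lay at -1.53, -1.64 and -1.49 and then at 7.93, 7.49 and 7.96 (9.34 ± 0.208). In these 3 genes the groups were separated by far more than the spread within either, and all 3 hCG arrays lay close together.

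Nmu, which encodes the peptide neuromedin U, lay at -1.63, -1.61 and -1.61 after PMSG and at 6.02, 6.72 and 7.55 after hCG (8.38 ± 0.443, adjusted p = 6.95e-06). Its hCG arrays spread over more than 1 log2 unit, with replicate 3 highest, and none came near the PMSG arrays. Rnf125, a ubiquitin ligase, stood at -3.53, -2.88 and -1.85 and rose to 5.44, 5.03 and 5.74 (8.16 ± 0.420). Here the PMSG arrays were the more spread. The other 7 of the 12 largest rises, described with their pathways below, were the EGF-like ligand genes Btc (8.82 ± 0.376), Ereg (8.12 ± 0.334) and Epgn (7.84 ± 0.146), Ptgs2 (8.06 ± 0.264), Pgr (7.92 ± 0.131), the vesicle fusion gene Snap25 (7.72 ± 0.333) and the pentraxin gene Ptx3 (7.53 ± 0.356). All 12 kept their call in every refit. None overlapped between groups, which the rule that picked the 12 required. The second probe set of Snap25 gave 0.84 and that of Ptx3 gave 0.04, neither of them called, whereas those of Btc (7.55) and Ptgs2 (7.23) were called too.

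**Figure D2:**
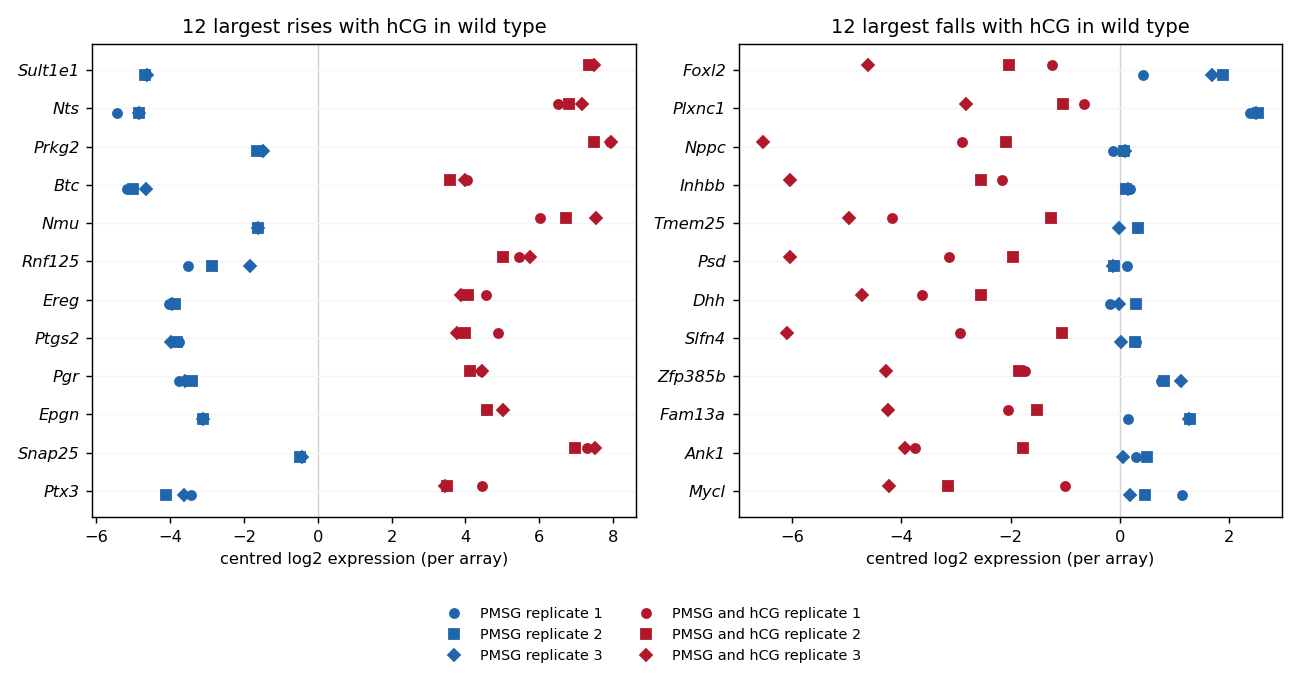
Centred log2 expression on each of the 6 wild-type arrays for the 12 genes with the largest rise (left) and the 12 with the largest fall (right), PMSG in blue and PMSG with hCG in red, replicates by marker shape. The groups are apart for all 24 genes, which the rule that picked them required. Among the falls, hCG replicate 3 (red diamond) is the lowest array for all 12.

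Promoter stretches of genes with large rises are printed because the transcription factors known to act after the LH surge bind short motifs. Promoters, the 250 bases before the annotated start, were taken from RefSeq (GRCm38.p6) and searched on both strands. The motifs were the cAMP response element TGACGTCA, its core TGACG (contained in the former), the AP-1 motif TGAGTCA or TGACTCA, the C/EBP motif TTGCNNAA, the NR5A motif AAGGTCA and the GC box GGGCGG. The table held 8 of the 12 largest rises, of which 4 held the core (Nts, Btc, Nmu and Epgn) and 0 the full element. The stretches are written on the strand of each gene with the core in capitals, which for Nts and Btc is its reverse complement.
Nts, chr10:102490544-102490620, minus strand: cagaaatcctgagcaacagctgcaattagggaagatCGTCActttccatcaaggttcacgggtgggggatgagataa
Btc, chr5:91403067-91403143, minus strand: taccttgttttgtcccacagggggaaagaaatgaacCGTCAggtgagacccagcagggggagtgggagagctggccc
Nmu, chr5:76363851-76363927, minus strand: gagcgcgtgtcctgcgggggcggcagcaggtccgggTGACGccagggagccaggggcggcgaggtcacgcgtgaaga
Epgn, chr5:91027380-91027456, plus strand: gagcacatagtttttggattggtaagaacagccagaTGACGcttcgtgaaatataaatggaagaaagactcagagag

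AP-1 motifs, sites of FOS and JUN dimers, were found for 2 of these 8 genes, Nts and Nmu, and for the matrix gene Tnfaip6. The C/EBP motif was found for Ptgs2 and Ptx3. Capitals mark the motif, which for Ptx3 is written as its reverse complement.
Nts, chr10:102490583-102490661, minus strand: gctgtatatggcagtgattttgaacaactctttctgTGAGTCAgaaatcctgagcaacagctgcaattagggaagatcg
Nmu, chr5:76363906-76363984, minus strand: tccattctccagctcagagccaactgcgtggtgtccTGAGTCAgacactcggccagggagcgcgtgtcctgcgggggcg
Tnfaip6, chr2:52037935-52038013, plus strand: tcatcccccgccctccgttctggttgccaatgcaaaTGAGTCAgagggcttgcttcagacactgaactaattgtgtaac
Ptgs2, chr1:150099926-150100005, plus strand: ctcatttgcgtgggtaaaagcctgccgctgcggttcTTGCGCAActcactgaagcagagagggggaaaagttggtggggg
Ptx3, chr3:66219794-66219873, plus strand: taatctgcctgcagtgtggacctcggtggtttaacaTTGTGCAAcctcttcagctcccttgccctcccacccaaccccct

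These motifs are common, and the shares were read only against those of other genes and promoters. A gene counted as holding a motif if any of its promoters did. Of the 668 genes with a promoter among those rising at least 2-fold, 30.2% held the core and 7.49% the AP-1 motif. The C/EBP motif was held by 11.7% of them and the full element by 2.99%. Of the 14452 tested genes with a promoter the shares were 25.9%, 4.73%, 9.65% and 2.50%. Of the 686 falling at least 2-fold they were 24.6%, 4.66%, 9.91% and 1.31%. Counted over the 32851 single promoters, a unit unlike genes, the shares were 17.8%, 4.46%, 9.56% and 1.55%. The GC box was held by 69.3% of the rising, 64.1% of the falling and 53.4% of the tested genes, and by 32.7% of the single promoters. The NR5A motif, bound by the steroidogenic factors Nr5a1 and Nr5a2, was held by 4.04%, 4.37%, 4.17% and 4.08% in the same order. Among the largest rises it was found for Sult1e1, where the reverse complement is in capitals.
Sult1e1, chr5:87591682-87591760, minus strand: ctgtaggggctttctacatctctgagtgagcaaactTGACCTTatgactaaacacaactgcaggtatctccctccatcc

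Members of 30 gene lists were read against the shares of all genes, 6.34% higher and 7.14% lower. The lists held 575 genes, of which 537 were measured. Most called members rose in the lists of PGR-dependent ovulatory genes, the hyaluronan matrix, ERK feedback, ovulatory transcription regulators and cholesterol synthesis. Most fell in those of preovulatory granulosa genes, oestrogen synthesis, DNA replication, mitosis and protein folding. Counts and medians are descriptions, since the lists were not tested as sets. The lists were chosen with earlier results of these data known, so high shares may reflect that choice.

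With the number in the array names as a random block, some list counts moved by more than 1.5 times. Among lists with at least 3 calls in a direction, the rises numbered 3 in place of 7 in cholesterol synthesis and 2 in place of 4 in the IL-6 family. Falls numbered 2 in place of 7 in DNA replication, in mitosis and among granulosa markers, 2 in place of 12 among preovulatory granulosa genes, 3 in place of 6 in protein folding and 2 in place of 4 in glycolysis. They numbered 1 in place of 5 in BMP signalling, 1 in place of 4 in the oestrogen, cGMP and prostaglandin lists and 1 in place of 3 in the cAMP and activin lists. Among semaphorins and plexins the random block left 0 of 4 falls, with 6 lower in limma at an unadjusted p under 0.05.

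**Figure D3:**
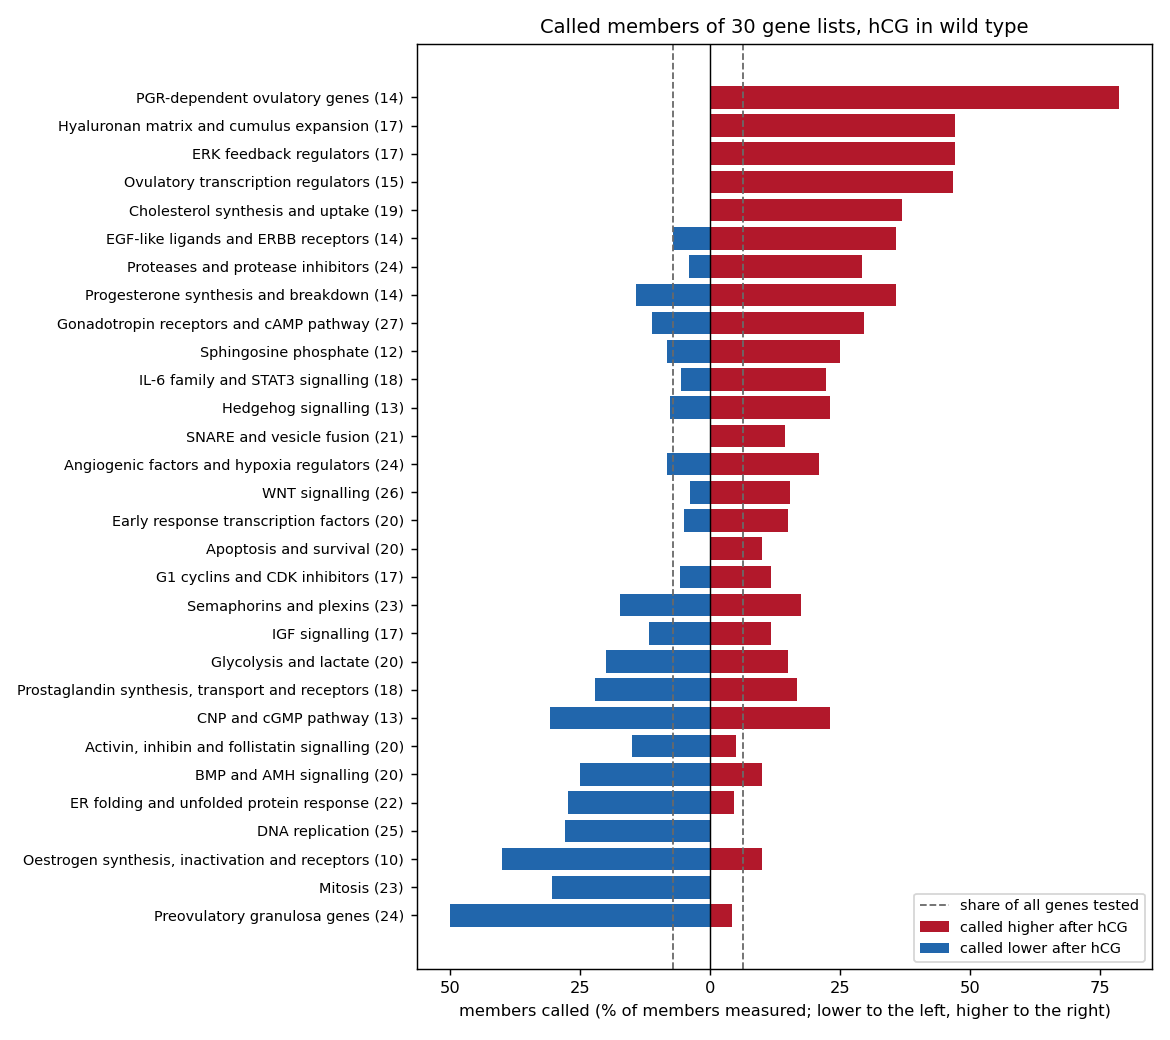
Share of measured members of each of the 30 gene lists called higher (red, to the right) or lower (blue, to the left) after hCG in wild type, in % of the members measured (number in brackets); the dashed lines mark the shares of all 18193 genes, 6.34% and 7.14%. PGR-dependent genes lead on the right, with 11 of 14, and preovulatory granulosa genes on the left, with 12 of 24. The lists were chosen with earlier results of these data known.

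Among receptor and second messenger genes the FSH receptor fell and several phosphodiesterase genes rose. Of 27 measured genes of the gonadotropin receptors and the cAMP pathway, 8 rose, 3 fell and 16 were not called (median 0.04). Fshr, the FSH receptor gene, lay at 1.11, 0.99 and 0.70 after PMSG and at -1.06, -0.19 and -1.66 after hCG (-1.91 ± 0.310, adjusted p = 0.00473). All 3 hCG arrays lay below all 3 PMSG arrays, with replicate 2 the nearest to them. Groups were apart in this way, up or down, for 30.3% of all genes.

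The phosphodiesterase gene Pde4b, whose product degrades cAMP, had the largest rise of this list, 4.72 ± 0.277. Of its relatives Pde4d rose by 3.01 ± 0.427, Pde10a by 1.81 ± 0.331 and Pde3b by 1.57 ± 0.307. The other probe set of Pde4d gave 0.03. Crem, whose short form ICER represses cAMP-driven genes, rose by 4.18 ± 0.289, and Rgs2, which speeds the shut-off of G proteins, by 2.87 ± 0.216. The regulatory subunits of protein kinase A moved in both directions, with Prkar1b at 2.83 ± 0.583 (5 of 6 refits, 2.34 to 3.30, lost without hCG replicate 3 at 2.59) and Prkar2b at -1.76 ± 0.302. Gprc5a rose by 0.46 (1 of 6 refits, 0.35 to 0.57), and the adenylyl cyclase gene Adcy9 fell by 1.12 (3 of 6 refits, -1.32 to -0.88). The catalytic subunit genes Prkaca (0.34) and Prkacb (-1.02), the G protein gene Gnas (-0.54) and Creb1 (0.54) were not called.

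The ligand genes Btc, Ereg and Epgn of the EGF receptor family were among the 12 largest rises. Of 14 measured ligands, receptors and regulators 5 rose, 1 fell and 8 were not called (median 0.03). Btc, betacellulin, lay at -5.18, -5.00 and -4.66 after PMSG and at 4.05, 3.58 and 3.98 after hCG. Ereg, epiregulin, lay at -4.04, -3.87 and -3.96 and then at 4.56, 4.07 and 3.87. Epgn, epigen, lay at -3.13, -3.11 and -3.12 and then at 4.55, 4.58 and 5.03. The 3 ligands had no array of either group near the other group, and hCG replicate 1, the early array, was the highest for Btc and Ereg.

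Errfi1, an induced inhibitor of ERBB receptors, rose by 4.75 ± 0.185. Egfr rose by 0.96 ± 0.256 (1 of 6 refits, 0.67 to 1.21), and Hbegf, another ligand, fell by 2.09 ± 0.541 (1 of 6 refits, -2.77 to -1.60, with -1.60 without hCG replicate 3). The values of Erbb2 (-0.13), Erbb3 (-1.30), Erbb4 (0.18), the ligand genes Tgfa (-0.20), Nrg1 (0.05) and Egf (0.01) and the sheddase Adam17 (-1.07) were not called. Areg, a further ligand of this family, was not analysed here.

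Downstream of the receptor, 8 of 17 ERK feedback regulators rose and 0 fell (median 0.83, with 0 lower in limma at an unadjusted p under 0.05 too). Dusp6 and Dusp4, phosphatases that inactivate ERK, rose by 3.52 ± 0.496 and 3.0 ± 0.484. Spred2, which blocks RAF activation, rose by 2.38 ± 0.309 and had -0.04 to 1.39 on its other probe sets. Smaller rises were those of Dusp5 (1.89), Dusp16 (1.40) and Spred3 (0.40), and of Dusp10 (1.46, 1 of 6 refits, 1.35 to 1.66) and Spry2 (1.30, 3 of 6 refits, 1.11 to 1.47). Dusp1 (1.68) and Spry4 (0.36) were not called.

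Early response transcription factors were called in few cases 6 h after hCG. Of 20 measured genes 3 rose and 1 fell (median 1.16), and without PMSG replicate 1 the rises numbered 7. Egr3, a zinc finger factor, rose by 6.44 ± 0.558, although its other probe set gave 0.00. Ier3 rose by 3.48 ± 0.314 and the AP-1 member Fosl1 by 1.51 ± 0.281, while Myc fell by 1.69 ± 0.279. Egr1 (1.56), Fos (0.55), Jun (0.26), Nr4a1 (1.32) and Atf3 (1.16) were not called. The median of the list was 0.83 on PMSG replicate 1, against -0.51 and -0.61 on the other PMSG arrays, and 1.86 on hCG replicate 1, against 0.62 and 0.43 on the other hCG arrays. Replicate 1 thus stood higher in both groups.

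**Figure D4:**
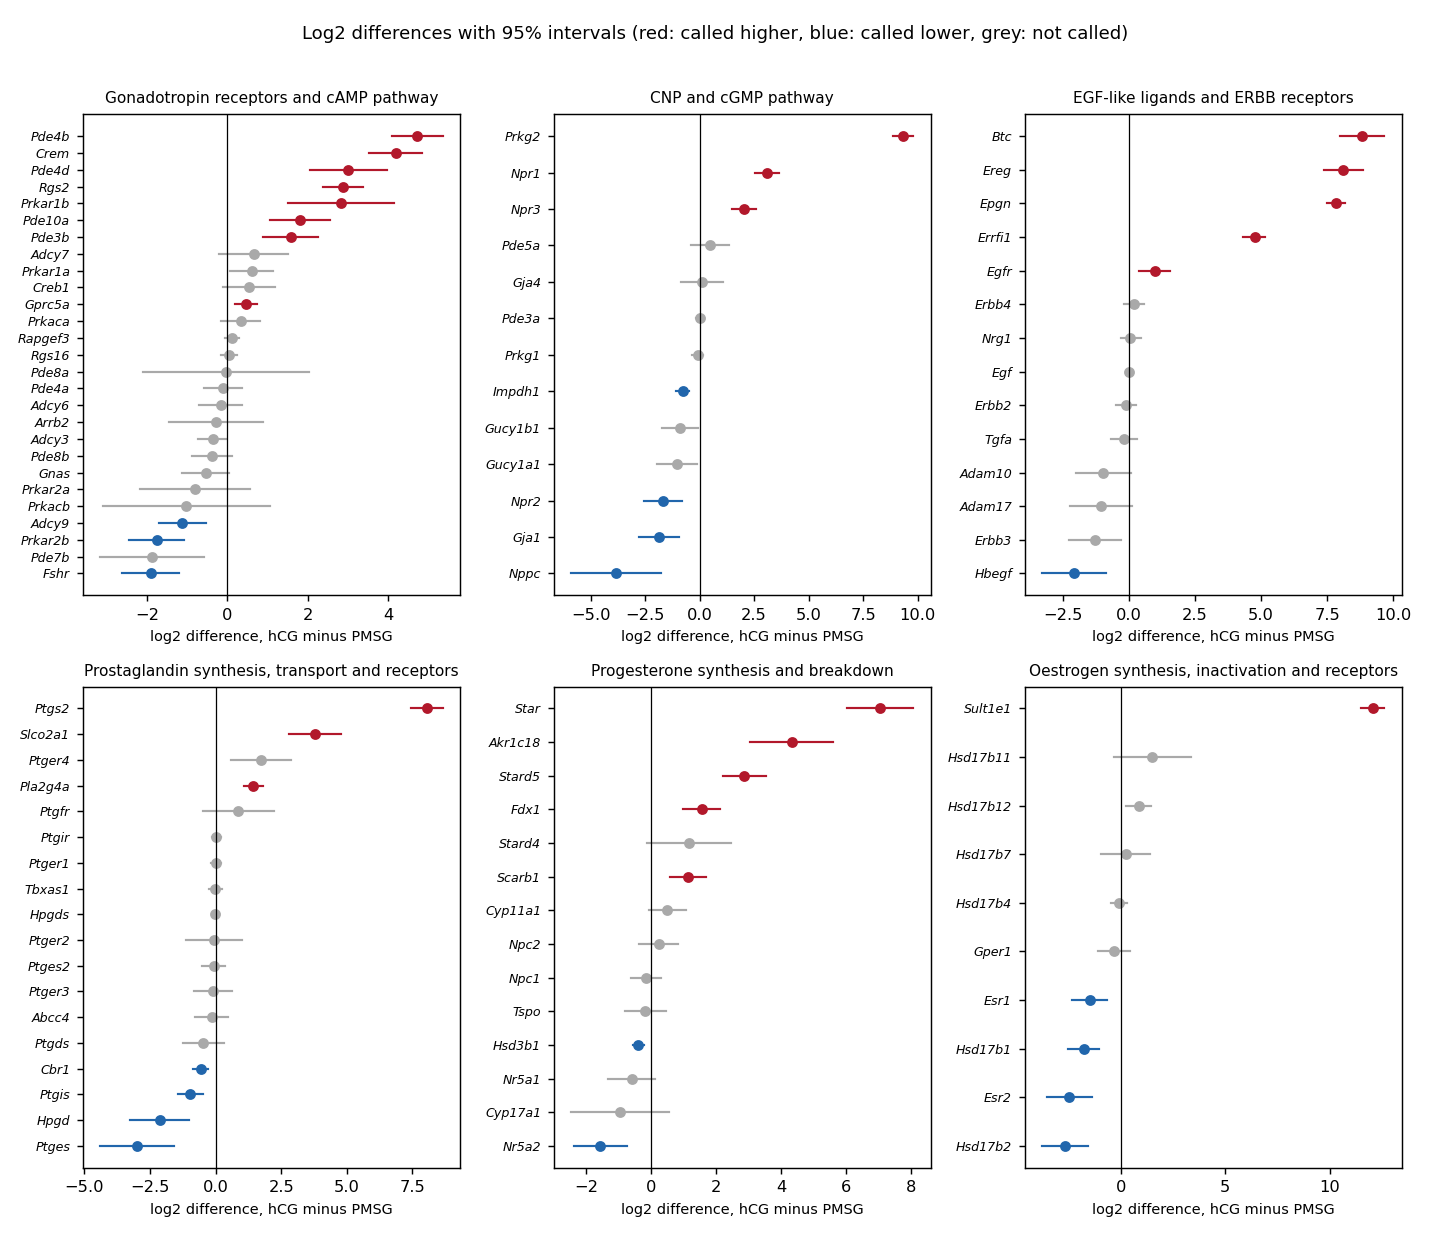
Log2 difference, hCG minus PMSG, with its 95% interval for every measured member of 6 lists; red points were called higher, blue lower and grey not called. In each panel the largest rise (Pde4b, Prkg2, Btc, Ptgs2, Star and Sult1e1) stands farther from 0 than the largest fall.

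Of 15 measured transcription regulators of ovulation 7 rose, 0 fell and 8 were not called (median 1.76, 0 lower at an unadjusted p under 0.05), and 7 or 8 rose in every refit. Pgr, the progesterone receptor, without which mouse follicles do not rupture, lay at -3.76, -3.40 and -3.59 after PMSG and at 4.43, 4.12 and 4.46 after hCG (7.92 ± 0.131, adjusted p = 7.55e-09). Runx1 lay at -1.19, -1.16 and -2.12 and then at 5.32, 4.30 and 5.03 (6.37 ± 0.498). In both genes the groups were wide apart, while 2 further probe sets of Pgr had differences of 0.00 and 2.05, of which 1 was called.

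Zbtb16 and the coactivator gene Cited4 each rose by 4.84, with standard errors of 0.418 and 0.274. The other probe set of Cited4 gave -0.01. The bZIP factor Nfil3 rose by 4.24 ± 0.497, the homeobox gene Rhox5 by 3.94 ± 0.425 and the clock-linked factor Bhlhe40 by 2.82 ± 0.402. Cebpb, required in granulosa cells for ovulation and luteinization, lay at -0.08, -0.42 and -0.29 after PMSG and at 2.55, 0.69 and 1.26 after hCG. Its groups did not overlap, as was so for 30.3% of all genes, and the spread of the hCG arrays was wide. The difference of 1.76 ± 0.559 missed the threshold (adjusted p = 0.076), while its other probe set was called at 1.92. Cebpa (-0.01), Cebpd (1.31) and Hif1a (-0.32) were not called, and Runx2 was not analysed here.

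Among these lists, chosen with earlier results of these data known, genes known to depend on the progesterone receptor had the highest share of rises. Of 14 measured members 11 rose and 0 fell (median 4.03, against 0.00 for all genes, and 0 lower at an unadjusted p under 0.05), and 10 or 11 rose in every refit. Snap25, part of the SNARE machine that fuses vesicles with the membrane, lay at -0.47, -0.48 and -0.44 after PMSG and at 7.29, 6.97 and 7.51 after hCG. Adcyap1, the gene of the peptide PACAP, rose by 6.74 ± 0.891. Il6 rose by 4.34 ± 0.394 and the metalloprotease gene Adam8 by 3.71 ± 0.334. Adamts1, which cleaves versican in the expanding matrix, lay at 0.06, -0.06 and -0.24 and then at 2.15, 2.01 and 2.63 (2.34 ± 0.242). All hCG arrays of Adamts1 lay well above the PMSG arrays. The transporter gene Abcb1b rose by 1.82 (2 of 6 refits, 1.56 to 2.15), and Edn2, an endothelin that contracts the follicle wall, by 1.57 ± 0.172. Ctsl (1.53), Gadd45b (0.83) and Rxfp1 (0.01) were not called.

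In the prostaglandin pathway the inducible synthase and the uptake carrier rose while enzymes further down fell. Of 18 measured genes 3 rose and 4 fell (median -0.04), the falls numbering 0 to 4 over the refits, with 0 without PMSG replicate 2. Ptgs2, cyclooxygenase 2, lay at -3.76, -3.81 and -3.97 after PMSG and at 4.89, 3.98 and 3.76 after hCG. The hCG arrays all lay far above the PMSG arrays, with replicate 1 highest. Slco2a1, the prostaglandin uptake carrier, rose by 3.79 ± 0.435, and Pla2g4a, which frees arachidonic acid, by 1.44 ± 0.158.

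Ptges, the inducible prostaglandin E synthase, fell by 2.99 ± 0.631 (5 of 6 refits, -3.42 to -2.14, lost without PMSG replicate 2 at -2.95), with both other probe sets called lower. The degrading enzyme gene Hpgd fell by 2.14 (3 of 6 refits, -2.68 to -1.53), the prostacyclin synthase gene Ptgis by 0.97 (3 of 6 refits, -1.06 to -0.83) and the carbonyl reductase gene Cbr1 by 0.57 (2 of 6 refits, -0.64 to -0.48). The receptor genes Ptger2 (-0.07), Ptger4 (1.73) and Ptgfr (0.87) were not called.

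Of 17 measured genes of the hyaluronan matrix list 8 rose, 0 fell and 9 were not called (median 0.35). In limma 1 was lower at an unadjusted p under 0.05, and 1 fell without hCG replicate 1. Has2, the hyaluronan synthase, lay at -2.39, -2.40 and -2.38 after PMSG and at 2.83, 1.61 and 1.95 after hCG (4.52 ± 0.548, adjusted p = 0.00101). Tnfaip6, which links the polymer to inter-alpha-inhibitor heavy chains, lay at -4.95, -4.20 and -4.18 and then at 3.02, 2.85 and 3.02 (7.41 ± 0.276). Ptx3, which holds these complexes together, lay at -3.45, -4.11 and -3.63 and then at 4.44, 3.51 and 3.45. None of the 3 genes overlapped between groups, which was so for 30.3% of all genes and was required for Ptx3 by the rule for the largest rises. hCG replicate 1 was highest for Has2 and Ptx3.

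The proteoglycan gene Vcan rose by 3.30 ± 0.534, with 4 other probe sets called higher, and the hyaluronan receptor genes Cd44 and Lyve1 rose by 3.11 ± 0.593 and 4.82 ± 0.771. Tnfaip8, counted in this list although its product is no known part of the matrix, rose by 2.83 ± 0.284. The tenascin gene Tnc rose by 3.22 (4 of 6 refits, 2.84 to 3.53), while its other probe set was called lower at -1.91. The other synthase genes Has1 (0.01) and Has3 (0.00) and the link protein gene Hapln1 (0.08) were not called.

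Among 24 measured proteases and inhibitors 7 rose and 1 fell (median -0.01). Adamts9 and Adamts4, which like Adamts1 cut versican, rose by 5.32 ± 0.455 and 3.66 ± 0.348. The inhibitor gene Timp1 rose by 4.09 ± 0.465, the plasminogen activator gene Plat by 2.77 ± 0.480 and the urokinase receptor gene Plaur by 1.43 ± 0.261. The other probe set of Plat gave 0.01. The lysosomal protease gene Ctsd fell by 0.59 and kept its call in 0 of 6 refits (-0.67 to -0.49). Mmp19 (1.85), Plau (0.69), Mmp2 (-0.48) and Adamts5 (-2.48) were not called.

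Cytokine and vascular ligands rose singly. In the IL-6 family 4 of 18 rose and 1 fell (median 0.13), with 2 to 5 rises over the refits and 2 without hCG replicate 3, PMSG replicate 2 or PMSG replicate 3. Beside Il6 these were the cytokine gene Clcf1 (2.73 ± 0.329), the oncostatin receptor gene Osmr (3.17, 2 of 6 refits, 2.95 to 3.54) and the kinase gene Jak2 (0.91, 3 of 6 refits, 0.77 to 1.04). The receptor gene Lifr fell by 0.86 ± 0.157. Socs3 (0.37), Lif (0.12) and the shared receptor gene Il6st (-0.99) were not called.

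Of 24 angiogenic factors and hypoxia regulators 5 rose and 2 fell (median 0.15), the falls numbering 0 without PMSG replicate 1 or hCG replicate 3. Egln3, an oxygen-sensing prolyl hydroxylase, rose by 6.01 ± 0.501, and Epas1, the hypoxia factor HIF-2 alpha, by 2.59 ± 0.478. The apelin receptor gene Aplnr rose by 1.50 ± 0.254 and the glucose carrier gene Slc2a1 by 1.27 ± 0.159. Vegfc rose by 2.12 (1 of 6 refits, 1.80 to 2.64), whereas Vegfb fell by 1.56 (3 of 6 refits, -1.81 to -1.31) and Bnip3 by 1.06 (1 of 6 refits, -1.25 to -0.90). Vegfa (-0.14) was not called.

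Genes of vesicle fusion and of axon guidance signals held single large rises. In the SNARE list 3 of 21 rose and 0 fell (median 0.25), with 3 lower at an unadjusted p under 0.05 and 1 fall without hCG replicate 1. The rises beside Snap25 were those of the syntaxin genes Stx11 (2.63 ± 0.356) and Stx3 (2.52 ± 0.436, with 3 other probe sets called higher). Among 23 semaphorins and plexins 4 rose and 4 fell (median -0.15). The semaphorin ligand genes Sema4f (5.86 ± 0.450), Sema3a (2.83 ± 0.339), Sema3d (2.79 ± 0.427) and Sema3e (2.61 ± 0.452) rose. The receptor gene Plxnb2 fell by 0.80 ± 0.157, Sema5a by 1.17 (2 of 6 refits, -1.45 to -1.01) and Sema7a by 3.29 (2 of 6 refits, -3.88 to -2.42), beside Plxnc1, described with the largest falls. Falls in this list numbered 1 without PMSG replicate 1, PMSG replicate 2 or hCG replicate 3.

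In sphingolipid signalling Sphk1, the kinase that makes sphingosine phosphate, rose by 6.06 ± 0.475, the ceramide synthase gene Cers6 by 1.97 ± 0.130, and the receptor gene S1pr3 by 3.27 ± 0.904. S1pr3 kept its call in 1 of 6 refits (2.38 to 4.50). The sphingomyelinase gene Smpd1 fell by 1.27 ± 0.192 while its other probe set gave 0.05. In all, 3 of 12 rose and 1 fell (median 0.19).

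Steroid synthesis changed at the entry of cholesterol and at the fate of the products. Of 14 measured genes of progesterone synthesis and breakdown 5 rose and 2 fell (median 0.36). Star, which carries cholesterol into mitochondria, lay at -3.24, -2.95 and -1.21 after PMSG and at 4.59, 4.28 and 4.84 after hCG (7.04 ± 0.457, adjusted p = 2.39e-05), and both of its other probe sets were called at 4.93 and 5.02. PMSG replicate 3 was the highest PMSG array, and all hCG arrays lay above it. Cyp11a1, the side-chain cleavage enzyme of the first step, lay at 0.56, 0.89 and 1.31 and then at 1.65, 1.11 and 1.46. Its groups overlapped, and the difference of 0.49 (95% interval -0.07 to 1.05) was not called.

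Fdx1, the electron donor of that enzyme, rose by 1.55 ± 0.251 and the cholesterol-binding protein gene Stard5 by 2.85 ± 0.294. The lipoprotein receptor gene Scarb1 rose by 1.12 (3 of 6 refits, 0.91 to 1.30). Akr1c18, which breaks progesterone down, rose by 4.32 ± 0.566, with PMSG arrays between -0.17 and 1.62 and hCG arrays between 4.32 and 5.88. Hsd3b1 fell by 0.40 ± 0.0796. Nr5a2, the nuclear receptor LRH-1, fell by 1.57 (3 of 6 refits, -1.77 to -1.26), and 2 of its other probe sets were called lower. Its probe set that varies most among the knockout arrays gave 0.08. The falls in the list numbered 1 without PMSG replicate 2, PMSG replicate 3 or hCG replicate 3.

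Of 19 measured genes of cholesterol synthesis and uptake 7 rose, 0 fell and 12 were not called (median 0.94, 0 lower in limma at an unadjusted p under 0.05). Rises numbered 5 to 8 over the refits, 3 with the random block, 3 with the replicate number as a block and 0 on early arrays alone, where 7 were higher at an unadjusted p under 0.05. Hmgcs1, the enzyme before the rate-limiting step of the pathway, rose by 2.54 ± 0.320, with 4 other probe sets called higher, and Cyp51, lanosterol demethylase, by 2.00 ± 0.203. Lss (1.69 ± 0.333), Dhcr7 (1.40 ± 0.276) and Sqle (1.03 ± 0.193) rose as well. Idi1 rose by 1.66 (5 of 6 refits, 1.31 to 1.93, lost without hCG replicate 3 at 1.55), and Sc5d by 0.94 (4 of 6 refits, 0.81 to 1.16). Insig1 (0.69), Srebf2 (0.01) and Fdps (0.10) were not called.

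On the oestrogen side the inactivating enzyme gene Sult1e1 rose and the receptor genes Esr1 and Esr2 fell. Of 10 measured members 1 rose, Sult1e1, and 4 fell (median -0.21). Esr2, the oestrogen receptor beta of granulosa cells, fell by 2.48 ± 0.475, and Esr1 by 1.51 (2 of 6 refits, -1.84 to -1.26). Hsd17b1, which makes oestradiol from oestrone, fell by 1.78 ± 0.325, and Hsd17b2, which acts in reverse, by 2.70 ± 0.490. Aromatase, Cyp19a1, and the LH receptor gene Lhcgr were not analysed here.

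The ligand gene Nppc and the receptor gene Npr2 fell in the pathway by which granulosa cells hold the oocyte in meiotic arrest. In it, C-type natriuretic peptide from mural cells drives cGMP production, and cGMP passes through gap junctions to the oocyte. Of 13 measured members 3 rose and 4 fell (median -0.08), with 1 to 4 falls over the refits and 1 without PMSG replicate 2. Nppc, the precursor of the peptide, lay at -0.12, 0.07 and 0.09 after PMSG and at -2.89, -2.08 and -6.53 after hCG (-3.85 ± 0.917, adjusted p = 0.0249). All hCG arrays lay below the PMSG arrays, as the rule for the largest falls required, and replicate 3 lay far below the other hCG arrays. Nppc kept its call in 3 of 6 refits (-4.72 to -2.50) and lost it without any single PMSG array (-3.91 to -3.81), while without hCG replicate 3 it stood at -2.50 and was called (adjusted p = 0.00196).

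Npr2, the receptor of this peptide, lay at 0.93, 0.18 and -0.05 and then at -1.03, -0.75 and -2.20 (-1.68 ± 0.397, 3 of 6 refits, -1.97 to -1.24). The groups did not overlap, as was so for 30.3% of all genes. Gja1, the connexin 43 gene, fell by 1.87 (4 of 6 refits, -2.13 to -1.40), and Impdh1, a step of guanine nucleotide supply, by 0.78 ± 0.126. The other natriuretic receptor genes went up, Npr1 by 3.11 ± 0.246 and the clearance receptor gene Npr3 by 2.03 ± 0.250, together with the cGMP-dependent kinase gene Prkg2. The other probe sets of Npr3 gave 0.16 and 0.49 and were not called. Pde5a (0.46) and Gja4 (0.09) were not called.

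Genes of the preovulatory granulosa cell held more falls than any other of the 30 lists, which were chosen with earlier results known. Of 24 measured members 12 fell and 1 rose, the kinase gene Sgk1 (1.69 ± 0.307), and the median was -1.27. Over the refits 7 to 11 fell, with 7 without PMSG replicate 1 or PMSG replicate 3 and 8 without PMSG replicate 2 or hCG replicate 3. With the number in the array names as a random block 2 fell. Foxl2, a forkhead factor that maintains granulosa cell identity, lay at 0.43, 1.89 and 1.70 after PMSG and at -1.24, -2.02 and -4.62 after hCG (-3.97 ± 1.11, adjusted p = 0.0481). Its groups did not overlap, which the rule for the largest falls required, and both were spread. Foxl2 kept its call in 1 of 6 refits (-4.66 to -2.97, with -2.97 and an adjusted p of 0.173 in limma without hCG replicate 3).

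Falls that held in all 6 refits were those of Nr0b1, an orphan receptor that represses steroid synthesis (-3.03 ± 0.597), Esr2, Foxo1, a forkhead factor of FSH-driven growth (-2.02 ± 0.341), Fshr, Hsd17b1, Prkar2b and the activin-binding protein gene Fst. The zinc finger factor Gata4 fell by 2.38 (1 of 6 refits, -2.95 to -1.91), the AMH receptor gene Amhr2 by 1.32 (1 of 6 refits, -1.59 to -1.08) and Grb14 by 1.01 (2 of 6 refits, -1.20 to -0.83). Ccnd2, the cyclin by which FSH drives granulosa proliferation, lay at -1.77, 0.34 and -0.03 and then at -2.21, -0.81 and -2.15, with overlapping groups. Its difference of -1.24 was not called (adjusted p = 0.296), while 4 of its other probe sets were called lower, between -1.84 and -1.04. Kitl (-0.93), Amh (-0.69) and Gata6 (0.29) were not called.

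Of the activin and inhibin subunit genes Inhbb was called lower, and Inhba and Inha were not called. Their differences were all negative and were not tested against each other. Inhbb, the beta B subunit of both hormones, lay at 0.19, 0.12 and 0.15 after PMSG and at -2.16, -2.54 and -6.04 after hCG (-3.74 ± 0.826, adjusted p = 0.018). Again hCG replicate 3 was far the lowest. Inhbb kept its call in 3 of 6 refits (-4.45 to -2.51). It lost the call without any single PMSG array (-3.75 to -3.72) and kept it without hCG replicate 3, at -2.51. Inhba lay at -0.64, 0.12 and -0.04 and then at -1.65, -0.49 and -2.35, and its difference of -1.31 was not called (adjusted p = 0.0768). Inha lay at 5.62, 5.62 and 5.87 and then at 5.52, 5.40 and 5.42, not called at -0.26 (95% interval -1.22 to 0.70). Fst lay at -0.20, 0.27 and 0.07 and then at -1.11, -1.14 and -1.66 (-1.35 ± 0.213). Of the 20 measured members of this list 1 rose, the receptor gene Acvr1 (0.83 ± 0.146), and 3 fell (median -0.19), the third being the coreceptor gene Tgfbr3 (-2.10, 0 of 6 refits, -2.35 to -1.85). Falls numbered 1 without any PMSG array.

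Receptors of BMP signalling were among the falls. Of 20 measured members 2 rose and 5 fell (median -0.10). The receptor gene Bmpr2 fell by 1.65 ± 0.318 and Bmpr1b by 2.83 (2 of 6 refits, -3.22 to -2.12). Id3, a target of BMP signals, fell by 1.91 ± 0.346 while its relative Id2 rose by 2.52 ± 0.367. The antagonist gene Grem1 fell by 2.09 (1 of 6 refits, -2.66 to -1.71), and the ligand gene Bmp6 rose by 1.16 (2 of 6 refits, 0.97 to 1.51). Falls in the list numbered 2 without any PMSG array or hCG replicate 3, and rises numbered 1 without PMSG replicate 2, PMSG replicate 3, hCG replicate 1 or hCG replicate 3.

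Calls in the developmental pathways included receptors and secreted antagonists. In the WNT list 4 of 26 rose and 1 fell (median 0.00). The secreted frizzled-related genes Sfrp2 and Sfrp4 rose by 6.35 ± 0.251 and 3.39 ± 0.691, the receptor gene Fzd1 by 4.68 ± 0.243 and the ligand gene Wnt4 by 1.82 (4 of 6 refits, 1.64 to 2.03), while Fzd6 fell by 1.84 ± 0.357. In hedgehog signalling 3 of 13 rose and 1 fell (median 0.00). The antagonist Hhip rose by 4.83 ± 0.631, with 3 other probe sets called higher, the transcription factor Gli3 by 2.82 ± 0.224 and the coreceptor Boc by 2.56 ± 0.318.

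Dhh, the desert hedgehog ligand that granulosa cells send to the theca, lay at -0.17, 0.30 and -0.02 after PMSG and at -3.63, -2.55 and -4.73 after hCG (-3.67 ± 0.507, adjusted p = 0.00208), called in all 6 refits. The groups were well apart, where the rule for the largest falls required no overlap. Ihh, the other ligand of these cells, had a difference of -3.11 and was not called, and hedgehog falls numbered 3 without hCG replicate 1 and 2 without hCG replicate 2 or 3. In the IGF list 2 of 17 rose and 2 fell (median 0.08). Stc1, an inhibitor of IGF-binding protein cleavage, rose by 2.20 ± 0.413 and Igfbp3 by 2.27 (1 of 6 refits, 1.72 to 2.68). The clearance receptor gene Igf2r fell by 1.86 ± 0.147 and the adaptor gene Irs1 by 2.12 ± 0.374. Rises numbered 1 in every refit except that without hCG replicate 2.

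The remaining large falls were those of receptors and less studied genes, and their differences were smallest without hCG replicate 3. Their calls did not all depend on that array. Psd and Slfn4 kept the call without it and lost it without any single PMSG array. Plxnc1, a semaphorin receptor, lay at 2.38, 2.53 and 2.49 after PMSG and at -0.65, -1.03 and -2.81 after hCG (-3.97 ± 0.920, adjusted p = 0.0222). It kept its call in 2 of 6 refits (-4.39 to -3.31) and stood at -3.31 without hCG replicate 3 (adjusted p = 0.0903). Tmem25 (-3.68 ± 0.757) lay between -0.02 and 0.34 after PMSG and between -4.96 and -1.26 after hCG and kept its call in all 6 refits. The exchange factor gene Psd (-3.67, 3 of 6 refits, -4.55 to -2.50, the latter without hCG replicate 3) and Slfn4 (-3.56, 2 of 6 refits, -4.71 to -2.19, the latter without hCG replicate 3) fell with wide spreads. Zfp385b fell by 3.52 ± 0.650 in all 6 refits. Fam13a fell by 3.50 (1 of 6 refits, -4.04 to -2.68, the latter without hCG replicate 3), Ank1, a membrane skeleton protein, by 3.44 (5 of 6 refits, -4.12 to -3.05, the latter without hCG replicate 3) and Mycl, a relative of Myc, by 3.39 (1 of 6 refits, -4.28 to -2.67, the latter without hCG replicate 3). Of the 12 largest falls 3 kept their call in all 6 refits and 7 kept it without hCG replicate 3, which was the lowest array for all 12.

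Cell cycle genes showed small falls and no rise outside the inhibitors. Of 25 measured DNA replication genes 7 fell and 0 rose (median -0.73), and of 23 mitosis genes 7 fell and 0 rose (median -0.66). At an unadjusted p under 0.05 limma gave 15 and 8 lower and again 0 higher. Falls numbered 2 to 6 over the refits for replication, with 2 without PMSG replicate 2 and 3 without PMSG replicate 3 or hCG replicate 3, and 2 to 8 for mitosis, with 2 without any of these 3 arrays. Called in all 6 refits were the DNA ligase gene Lig1 (-1.16 ± 0.177), the polymerase gene Pola1 (-1.25 ± 0.208), the proliferation marker Mki67 (-1.20 ± 0.196) and the cyclin gene Ccnb2 (-1.59 ± 0.191). The histone chaperone gene Chaf1b fell by 1.25 (4 of 6 refits, -1.57 to -0.95) and Birc5, survivin, by 0.72 (3 of 6 refits, -0.89 to -0.61).

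The other 8 cell cycle falls held in 1 or 2 of 6 refits. Held in 1 were the helicase subunit genes Mcm3 (-1.87, -2.14 to -1.58) and Mcm7 (-0.80, -1.08 to -0.62). Held in 2 were the primase gene Prim1 (-0.77, -1.0 to -0.62), the repair gene Ung (-0.76, -0.96 to -0.62), Anln, which encodes anillin (-1.05, -1.31 to -0.81), the cyclin gene Ccna2 (-0.82, -1.04 to -0.68) and the mitotic kinase genes Plk1 (-0.67, -0.81 to -0.58) and Bub1b (-0.66, -0.77 to -0.56). All 8 lost the call without PMSG replicate 2 or hCG replicate 3, and all but Ung without PMSG replicate 3. Pcna (0.12), Top2a (-0.36) and Cdk1 (-0.21) were not called. Among 17 G1 cyclins and inhibitors, the cyclin kinase inhibitor genes Cdkn1a (3.31 ± 0.596) and Cdkn2d (1.43, 4 of 6 refits, 1.25 to 1.57) rose and E2f1 fell by 0.69 (3 of 6 refits, -0.82 to -0.52), with a median of 0.00. Rises numbered 1 without PMSG replicate 1 or hCG replicate 3. Cdkn1b, which encodes p27, was not called at -0.36.

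Sugar metabolism moved in both directions. Of 20 measured genes of glycolysis and lactate 3 rose and 4 fell (median -0.63). The hexokinase gene Hk2 rose by 1.45 ± 0.277 and the enolase gene Eno2 by 1.80 ± 0.311 beside Slc2a1, while the phosphofructokinase genes Pfkm and Pfkl fell by 2.22 ± 0.370 and 1.75 ± 0.319. The lactate carrier gene Slc16a1 fell by 1.40 ± 0.268 and Pkm by 0.62 (1 of 6 refits, -0.79 to -0.50). Ldha (-0.34) was not called.

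Of 22 genes of protein folding in the endoplasmic reticulum, 1 rose, the stress factor Atf4 (0.94 ± 0.178), and 6 fell (median -0.61), with 2 rises without hCG replicate 1. Falls in all 6 refits were those of Sdf2l1 (-2.07 ± 0.314), the stress kinase gene Eif2ak3 (-1.01 ± 0.183), Dnajc3 (-0.98 ± 0.163) and Herpud1 (-0.81 ± 0.146). Xbp1 fell by 0.80 (1 of 6 refits, -0.93 to -0.65) and Manf by 0.59 (2 of 6 refits, -0.74 to -0.49). The chaperone gene Hspa5 (0.31) was not called. Of 20 apoptosis genes 2 rose, Gadd45a (1.22, 2 of 6 refits, 0.95 to 1.53) and Casp8 (0.38, 1 of 6 refits, 0.29 to 0.45), and 0 rose without PMSG replicate 2, PMSG replicate 3, hCG replicate 1 or hCG replicate 3 (median 0.19). Of this list 0 fell, with 1 lower at an unadjusted p under 0.05.

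Many genes have several probe sets, which did not always move alike. Of the 192 named calls 118 are of genes with further probe sets, and for 42 of these no other probe set was called in the same direction. Beside those given above, the other probe sets lay near 0 for the rises of Osmr (0.01), Spry2 (0.01), Tnfaip8 (0.03), Stc1 (0.03), Stx11 (0.06), Abcb1b (0.11), Dusp10 (0.12) and S1pr3 (0.01 to 0.34). The same was so for the falls of Pola1 (0.00), Chaf1b (0.04), Eif2ak3 (-0.02), Slc16a1 (-0.12) and Hpgd (-0.20). Each of these 13 calls rests on a single probe set of the gene. Further rises had Pde10a at 0.01 to 0.90 on the other probe sets, Egfr at -0.00 to 0.98, Sc5d at -0.18 to 0.59, Acvr1 at 0.03 to 0.47, Jak2 at 0.40, Fosl1 at 0.42, Aplnr at 0.49, Epas1 at 0.56, Sema3d at 0.60, Dusp16 at 0.98 and Igfbp3 at 1.07. Further falls had Lifr at -0.37 to -0.26, Fzd6 at -0.81 to 0.00, Anln at -0.50, Ccna2 at -0.63, E2f1 at -0.70 to -0.00, Pfkl at -1.48 to -0.04, Xbp1 at -0.46 to 0.35 and Sema5a at -1.17 to -0.31.

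Markers of other ovarian cells were mostly not called, like most genes, of which 13.5% were called in either direction. The marker lists are short, and their shares were not tested against that of all genes. Of 14 oocyte markers 0 were called (median -0.18, with Zp3 at -2.16 and Gdf9 at 0.15), of 12 theca and stroma markers 0 (median -0.23) and of 10 endothelial markers 0 (median -0.00). At an unadjusted p under 0.05 limma gave 1, 0 and 2 of these. Without PMSG replicate 3 limma called 1 oocyte marker, and without hCG replicate 1 it called 1 endothelial and 1 red blood cell marker. On single arrays the oocyte median lay between -1.46 and -0.58 after PMSG and between -1.50 and -0.59 after hCG, and that of theca and stroma between -0.79 and -0.50 and between -1.16 and -0.52. Endothelial medians were -0.07 to 0.24 and -0.02 to 0.54. Of 12 leukocyte markers 1 rose, Cd52 (1.62, 1 of 6 refits, 1.40 to 1.95), with list medians of -0.18 to -0.03 and -0.01 to 0.20, and the 3 measured red blood cell genes were not called.

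Of 9 surface epithelium markers 3 rose: the cadherin gene Cdh1 (1.86 ± 0.232) and the keratin genes Krt7 (1.34 ± 0.248) and Krt18 (1.39, 5 of 6 refits, 1.14 to 1.55, lost without PMSG replicate 2 at 1.16). Their list medians were 0.04 to 0.58 after PMSG and 0.35 to 1.04 after hCG, and the defining markers Upk3b (-0.97), Upk1b (0.15) and Msln (-0.12) were not called. Of 7 cumulus markers 4 rose, the matrix genes Has2, Tnfaip6 and Ptx3 and Ptgs2, whereas Slc38a3, a cumulus carrier not induced by LH, was not called at -1.79. Of 10 granulosa markers 7 fell, all named above, and 3 to 7 fell over the refits, with 3 without PMSG replicate 2 or PMSG replicate 3 and 4 without PMSG replicate 1 or hCG replicate 3. The granulosa list medians were 0.58 to 0.70 after PMSG and -1.67 to -0.67 after hCG. Of 12 genes induced by tissue dissociation 1 rose, the inhibitor of NF-kappa-B Nfkbia (1.71, 1 of 6 refits, 1.33 to 2.20), with a median of 0.67. On both arrays of replicate 1 the dissociation median was high, 1.45 after PMSG and 2.02 after hCG, against -0.18 and -0.09 and 0.66 and 0.61 on the others. The part of these markers in the results was not tested.

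The differences of the same hCG contrast in the Inha knockout use values of none of the 6 wild-type arrays. The knockout calls are not independent of those arrays, since the variances were pooled over both genotypes. The probe set of each gene was also chosen on the arrays of both genotypes. Of the 853 genes that rose at least 2-fold in wild type, 761 (89.2%) had the same sign in the knockout and 179 were called there, against 1.30% of all genes called higher, and their median difference was 0.70 there and 1.99 in wild type. Of the 854 that fell, 735 (86.1%) had the same sign and 3 were called, against 0.137% of all genes called lower, with medians of -0.35 and -1.47. The genes were chosen on the wild-type values, which favours larger differences in wild type. The difference of both responses, an interaction term, was called for 197 genes (1.08%). Among the 1153 genes that rose in wild type it was called for 153, in 150 of them with the larger response in wild type, and among the 1299 that fell for 32, all with the larger fall in wild type.

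Among the genes described above the interaction was called for 24 rises and 1 fall. Btc (8.21 in the knockout), Ereg (9.54), Pgr (7.37), Tnfaip6 (7.79), Ptx3 (7.50) and Star (8.68) rose in the knockout too, and their interaction was not called (adjusted p = 0.274 to 0.981). Prkg2 rose by 9.34 in wild type and by 3.04 in the knockout. Snap25 had 7.72 and 1.62 and Zbtb16 4.84 and -0.12, with neither called in the knockout and a called interaction in all 3. Ptgs2 and Npr3 were the rises with the larger response in the knockout, 10.78 against 8.06 and 5.87 against 2.03. A response called in wild type and not in the knockout does not by itself show a difference. Of the 77 falls described here the interaction was called for 1, Igf2r (-1.86 and -0.03), and not for Foxl2, Nppc or Inhbb.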

How the data were processed

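Per the submitters' processing notes the authors computed expression with GCRMA (version not given in the sources used here), and they deposited log2 values centred per probe set on the median of all 12 arrays. The centring was read from the values (largest absolute median 5e-07) and is not stated in the labels. The table held 0 columns of other samples. Array medians lay between -0.0197 and 0.0930, and the number of arrays limits the precision. Probe sets were named from the platform annotation with symbols checked in RefSeq: of 45101 probe sets, 34945 name a single gene, 932 several and 9160 none, and 64 controls were left out.

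limma 3.58.1 (R 4.3.3) fitted 1 mean per group over all 12 arrays, with moderated variances (8 residual degrees of freedom, prior 1.3) and Benjamini-Hochberg adjustment over the 34945 probe sets. Each gene was read from the probe set that varied most over the 12 arrays, which favours probe sets that respond, so the other probe sets are given where none was called in the same direction. The ± sign gives the SE.

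Genes were named by a rule: the 12 largest rises and falls with a 2-fold change and no overlap between arrays, called members of each list, and a panel of 27 follicle genes, of which 23 were measured. The members and lists were chosen with earlier results of these data known. On simulated data of 34945 probe sets for this contrast, 18 of 100 sets changed by log2 1 and 64 of 100 changed by log2 2 were called, with 6 false calls. The simulated noise was independent between arrays and equally wide on all of them, unlike the data. These counts therefore do not give the false calls to be had in the real arrays. Alternatives varied the arrays, blocks, scaling, filters and the probe set per gene. Raw scans were not used here.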

Additional observations from a re-analysis of the deposited data

Results flagged for a closer look

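For 25 named genes the hCG response differed between wild type and the Inha knockout in the interaction term of limma. The values are wild type minus knockout in log2 units. These genes were named for their response in wild type, which enters the interaction, and 1.08% of all genes were called in that test.

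The response of the kinase gene Prkg2 was larger in wild type by 6.30 (adjusted p = 5.34e-05) and that of the vesicle fusion gene Snap25 by 6.10 (adjusted p = 0.00077). The sphingosine kinase gene Sphk1 differed by 5.48, the hedgehog antagonist gene Hhip and the transcription factor gene Zbtb16 by 4.97 each and the semaphorin gene Sema4f by 4.93. The progesterone-degrading enzyme gene Akr1c18 differed by 4.28 (adjusted p = 0.0477) and the peptide gene Nmu by 4.20.

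Differences between 3 and 4 were those of the WNT receptor gene Fzd1 (3.55), the protease gene Adam8 (3.30), the prostaglandin carrier gene Slco2a1 (3.25, adjusted p = 0.0499), the coactivator gene Cited4 (3.24) and the cholesterol-binding protein gene Stard5 (3.09). Sult1e1 differed by 2.70, Gli3 by 2.49, Errfi1 by 2.44, the natriuretic receptor gene Npr1 by 2.38, Tnfaip8 by 2.29 and the G protein regulator gene Rgs2 by 1.94. Smaller differences were those of Cers6 (1.78), the endothelin gene Edn2 (1.57) and the EGF-like ligand gene Epgn (1.42).

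In the other direction, the response of the clearance receptor gene Npr3 stood at -3.84 in this difference (2.03 in wild type and 5.87 in the knockout) and that of Ptgs2 at -2.73 (8.06 and 10.78). For Igf2r the difference was -1.83, as the gene fell in wild type (-1.86) and not in the knockout (-0.03).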

How the results depend on the processing

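The main counts were 2090 probe sets higher and 2155 lower, and 1153 genes higher and 1299 lower. With the replicate number of the titles as a block they were 1236 and 766 probe sets and 730 and 487 genes. Same-numbered arrays of both groups correlated in their deviations from the group means with r of 0.162, 0.0378 and 0.195 across probe sets. Each array correlated best with its own number. The labels do not say whether equal numbers mark pairs, and the main fit did not take them as pairs. The number in the array names as a random block (consensus correlation 0.573) gave 1264 and 698 probe sets and 717 and 437 genes. Early serial numbers only, with 1 hCG array that was assumed to vary like the other early arrays, gave 1130 and 807 probe sets and 615 and 518 genes, and array weights 5101 and 5598 probe sets and 2703 and 3273 genes. A filter on the upper 60% by mean left 542 probe sets and 306 genes lower. On centred values that mean is no level and a fall lowers it, so the filter itself tends to remove falls. Leaving out single arrays gave 1297 to 2007 probe sets higher and 977 to 2312 lower, and 741 to 1143 genes higher and 622 to 1391 lower. Counts under the other alternatives stayed within 1.5 times. With the probe set chosen on the knockout arrays Nr5a2 (0.08) and Smpd1 (0.05) changed sign. The other named calls kept their sign under the alternatives in which their probe set was tested: the filter by mean left out 99 of the 192 and that by SD 2. Of the 192 calls the replicate block removed 102, the random block 80, early arrays only 103, absence of hCG replicate 3 58 and array weights 0. The weights of hCG replicates 1, 2 and 3 were 0.272, 0.802 and 2.75. The weighted fit thus leaned most on replicate 3 among the hCG arrays and is no check against that array. In limma with the replicate block the list falls numbered 0 in place of 12 among preovulatory granulosa genes (18 at an unadjusted p under 0.05), 0 in place of 7 in DNA replication (13) and among granulosa markers (8), 0 in place of 6 in protein folding (12), 0 in place of 5 in BMP signalling (7), 0 in place of 4 in the oestrogen and cGMP lists (4 and 5) and 0 in place of 3 in the cAMP list (5). They numbered 3 in place of 7 in mitosis, 2 in place of 4 in glycolysis, 1 in place of 4 among semaphorins and in the prostaglandin list, 1 in place of 3 in the activin list and 3 in place of 1 in WNT signalling. Rises numbered 5 in place of 8 in ERK feedback, 3 in place of 5 in progesterone synthesis, 1 in place of 4 in the IL-6 family, 1 in place of 3 in glycolysis, 0 in place of 3 among surface epithelium markers (3 unadjusted) and 3 in place of 1 among dissociation genes. On early arrays alone the rises numbered 7 in place of 11 among PGR-dependent genes, 5 in place of 8 in the cAMP and ERK lists, 4 in place of 8 in the hyaluronan matrix, 2 in place of 5 in progesterone synthesis, 1 in place of 5 among angiogenic factors, 1 in place of 3 in hedgehog signalling and 0 in place of 3 among surface epithelium markers (3 unadjusted). Falls there numbered 5 in place of 12 among preovulatory granulosa genes, 3 in place of 5 in BMP signalling, 2 in place of 7 in DNA replication and among granulosa markers, 1 in place of 7 in mitosis, 1 in place of 6 in protein folding, 2 in place of 4 in the cGMP, prostaglandin and glycolysis lists and 1 in place of 4 in the oestrogen and semaphorin lists.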

Other observations

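Further rises of at least 16-fold lay outside the rule for named genes and were picked after their values were seen. Several encode secreted peptides or proteins of secretory vesicles. Chgb, a granule protein of neuroendocrine cells, rose by 6.26, the proglucagon gene Gcg by 5.43, neuropeptide Y, Npy, by 5.15 and the tachykinin gene Tac1 by 4.68. Snap91, a protein of synaptic vesicle recycling, rose by 5.57. The peptidase gene Pcsk5, which cleaves peptide precursors, rose by 4.40.

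Receptors and signalling genes formed a second set, again by choice after the fact. The chemokine receptor gene Cxcr4 rose by 6.85, the leptin receptor gene Lepr by 6.66, the orphan receptor gene Gpr83 by 5.25, the interleukin receptor gene Il1rl2 by 5.18 and Mrap, an accessory protein of the ACTH receptor, by 5.00. Efnb2, the ephrin B2 ligand, rose by 5.68. Cell adhesion genes Alcam (5.08) and Nrcam (4.97) rose, as did Slc7a11 (5.75), the cystine carrier, and the metallothionein gene Mt2 (4.41).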
